A study of Schizophyllum commune with 14 samples.

Results

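The fully expanded fruiting body of the split gill mushroom Schizophyllum commune was compared with the stage 1 primordium, the earliest fruiting initial that was harvested, so that the comparison spans the visible course of fruiting. It uses 6 of the 14 RNA libraries of the study, taken by their stage labels: 3 of fruiting body and 3 of stage 1 primordium, all read on the same flow cell. Every library came from a dikaryon (hyphae with a pair of unlike nuclei in each cell) of strain H4-8, made by mating the monokaryons H4-8a and H4-8b on MM medium. A 5 mm agar plug of the dikaryon was grown in the dark at 30 °C for 5 days and then, upside down, at 25 °C for 10 days with 12 hours of light a day. Stage 1 primordia were initials of up to 2 mm, and the fruiting bodies were those that had opened in full. The 3 vegetative mycelium libraries, from the other flow cell, the 2 stage 2 primordium libraries (initials of 3 to 4 mm) and the 3 young fruiting body libraries (cups of 5 to 7 mm) are used only to place levels. Whole structures were ground, so every value is a mixture of tissues, and a change in the number of cells of a type cannot be told apart from a change in RNA per cell. The labels number the replicates but do not say whether they came from separate cultures, so the p-values measure the spread between these samples.

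In S. commune, light and low carbon dioxide let the dikaryon knot its hyphae into aggregates, which become primordia and then cup-shaped fruiting bodies with split gills that bear the spores. Hydrophobins are small secreted proteins that assemble into water-repellent coats on hyphae and line the air channels of the fruiting body. A set of transcription regulators, known from deletion strains of this species, sets whether aggregates form, how many primordia grow out and how large they become. The deposited models carry ID numbers only. Of the 16319 models, 16024 were matched to locus tags and 20 to a gene symbol, so most genes below are known by a locus tag without a described product. Genome positions of the matched tags were used only for gene order and gene spans and are not printed.

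Unique reads (reads with a single placement) numbered 18469347 to 19176833 in the primordium libraries and 15717469 to 24052213 in those of the fruiting body. Over the 13751 genes tested, log2 levels correlated between primordium libraries at Pearson r of 0.964 to 0.982, and between the stages at 0.794 to 0.925. These correlations run across genes, which are not independent. Fruiting body replicate 1 stood apart from its own group, at 0.933 and 0.934 with replicates 2 and 3, against 0.989 between those, and it also lay farthest from the primordia. Results are therefore given with and without it where it moves them. The biological coefficient of variation was 0.285 in the primordium and 0.338 in the fruiting body.

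Between primordium and fruiting body, 4258 of 13751 genes were called (31.0%; edgeR quasi-likelihood test, Benjamini-Hochberg adjusted p below 0.05), 2478 higher in the fruiting body (18.0%) and 1780 lower (12.9%). The rises were larger than the falls. Of the genes called higher, 838 rose at least 4-fold (6.09% of genes tested) and 193 at least 16-fold, while 181 of those called lower fell at least 4-fold (1.32%) and 15 at least 16-fold. The median called rise was 2.99-fold and the median called fall 2.05-fold. Without fruiting body replicate 1, 674 genes rose (4.87%) and 123 fell (0.888%) at least 4-fold, of which 641 and 98 were among the 838 and 181. The share of calls that were higher was 58.2%. Over the alternatives it ran from 53.6% (limma voom with sample weights) to 74.0% (levels scaled by library totals alone). It was 54.4% without fruiting body replicate 1. Scaling by library totals alone moved the median log2 change of all genes from 0.03 to 0.18. The total was less stable than the large changes: it was 1994 without stage 1 primordium replicate 1, 2082 without its replicate 2 and 2568 without fruiting body replicate 2, whereas without any 1 of the 6 libraries the 4-fold rises numbered 674 to 951.

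**Figure D1:**
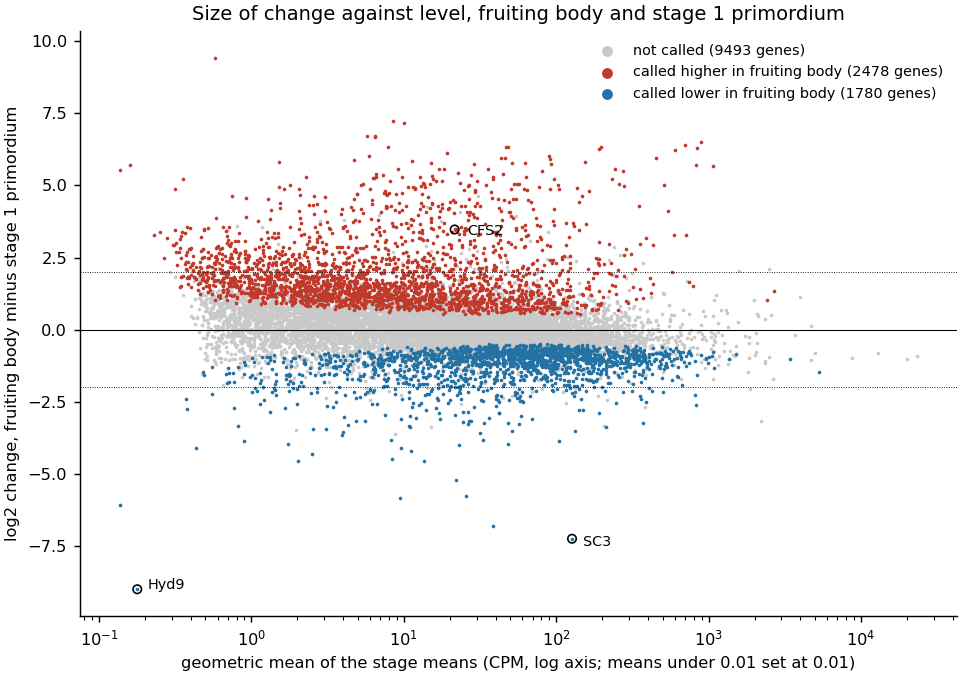
Each point is 1 of the 13751 genes tested, with its log2 change (fruiting body minus stage 1 primordium) against the geometric mean of both stage means in CPM on a log axis; dotted lines mark 4-fold. Of the 2478 genes called higher, 838 lie beyond 4-fold, against 181 of the 1780 called lower, and SC3 and Hyd9 are the lowest labelled points; the Hyd9 value is a fit against 0 fruiting body reads.

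SC3, the hydrophobin that coats aerial hyphae, had the largest fall among genes with at least 50 CPM (unique read counts scaled to library size over all 14 libraries) in the higher stage. It was at 2889, 969 and 852 CPM in primordium replicates 1 to 3 and at 3.32, 16.4 and 11.1 CPM in those of the fruiting body. Every primordium library lay more than an order of magnitude above every fruiting body library. The log2 change was -7.25 ± 0.86 (SE, n = 3 each; adjusted p = 0.00270), a 152-fold fall, and it was called under all 17 alternatives tried. Without stage 1 primordium replicate 1 the log2 change was -6.48. The fall did not run evenly through the intermediate stages: stage 2 primordia were at 34.0 and 135 CPM, and young fruiting bodies at 742, 9.69 and 1185 CPM, so that 2 of the 3 young fruiting bodies lay in or near the primordium range. The mycelium was at 230 ± 85.7 CPM (SD, n = 3), above every fruiting body library.

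None of the 7 hydrophobins with a symbol was called higher, 2 fell (SC3 and Hyd9) and 5 were not called. Of all genes tested 18.0% were called higher and 12.9% lower, and this is a list of only 7. Their median log2 change was -1.53, also with Hyd9 at its bound, against 0.03 over all genes tested. That median is the value of SC6, which was not called. Hyd9 was at 0.874, 1.95 and 6.73 CPM in the primordium libraries and had 0 reads in all 3 fruiting bodies. It was thus at least 68.1-fold lower, taking 3 reads over the fruiting body group as the floor (adjusted p = 0.0172). The bound was 32.0 without stage 1 primordium replicate 3, 42.8 and 42.7 without fruiting body replicates 1 and 3, and the call ended without fruiting body replicate 1 (adjusted p = 0.0641). Hyd9 was also at 0 reads in the mycelium, stage 2 primordium and young fruiting body libraries, so stage 1 primordium was the only stage where it was read.

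SC6, a hydrophobin of fruiting dikaryons matched here by an older locus tag and so with less certainty, was at 160, 426 and 112 CPM in the primordia and at 3.12, 88.5 and 148 CPM in the fruiting bodies. Fruiting body replicate 1 was the low one, and the groups overlapped (log2 change -1.53 ± 1.11, adjusted p = 0.314). SC6 was not uniformly present between the end points, with 2.21 and 1.93 CPM in the stage 2 primordia and 44.8, 4.99 and 3.01 CPM in the young fruiting bodies. Hyd8 was at 208, 710 and 127 CPM in the primordia and at 266, 174 and 184 CPM in the fruiting bodies, which overlapped (-0.73 ± 0.60, adjusted p = 0.375). Its stage 2 primordium libraries were at 56.2 and 18.1 CPM and its young fruiting bodies at 113, 8.65 and 13.8 CPM. All of these lay below all 6 libraries of the end points. Hyd4, at 131 ± 181 against 112 ± 82.7 CPM, and Hyd5, at 22.9 ± 20.8 against 14.0 ± 16.3 CPM, did not pass the test (adjusted p = 0.887 and 0.591). In the stage 2 primordia Hyd5 was at 231 and 56.0 CPM, above all 6 libraries of the end points. Reads of Hyd3 came mostly from stage 1 primordium replicate 2, at 90.9 CPM, and lay between 0.243 and 5.49 CPM in the other 5 libraries (adjusted p = 0.180). The direction of 4 of the 5 uncalled members is not settled, SC6 being the exception, at log2 changes of -2.54 to -0.77 under the 17 alternatives. Without stage 1 primordium replicate 2 the log2 changes of Hyd3, Hyd4 and Hyd8 were above 0 (1.36, 2.06 and 0.32), and without its replicate 3 that of Hyd5 was (0.35).

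**Figure D2:**
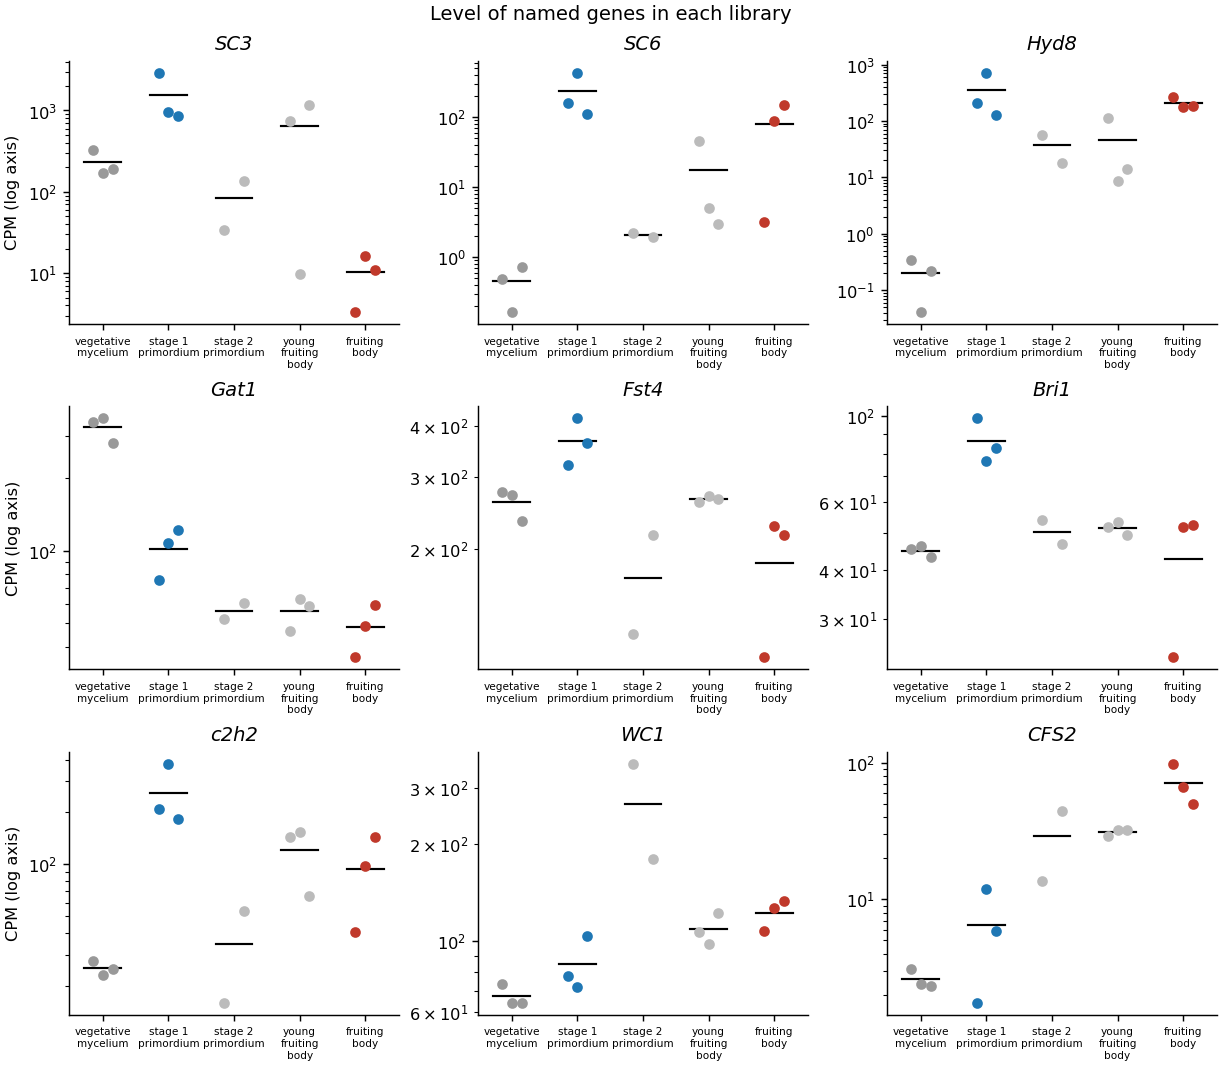
CPM (log axis) of 9 named genes in every library by stage, with points for libraries and bars for stage means; stage 1 primordium is blue, fruiting body red, the other stages grey. SC3 runs from 852 to 2889 CPM in the primordium down to 3.32 to 16.4 CPM in the fruiting body, and CFS2 rises across fruiting. SC6 and Hyd8 have lower means in both stage 2 primordium and young fruiting body than at either end.

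Of the 6 regulators with a symbol, 3 fell, all by about 2-fold, and none rose, where 12.9% of all genes tested were called lower and 18.0% higher; with 6 genes nothing particular to the list is read from this. Gat1, a GATA-type zinc finger regulator whose loss gives more and smaller fruiting bodies, was at 75.6, 108 and 122 CPM in the primordia and at 36.1, 48.8 and 59.9 CPM in the fruiting bodies (log2 change -1.06 ± 0.26, adjusted p = 0.0216). Fst4, a fungus-specific transcription factor needed for aggregates to form, was at 322, 417 and 362 CPM against 109, 228 and 217 CPM (-0.98 ± 0.31, adjusted p = 0.0465). Bri1, with an ARID/BRIGHT DNA-binding domain, was at 98.6, 76.7 and 82.8 CPM against 23.8, 51.6 and 52.5 CPM (-1.002 ± 0.31, adjusted p = 0.0465). In all 3 genes the groups did not overlap, as in 52.9% of all genes tested, and fruiting body replicate 1 was the lowest library.

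These regulator calls were close to the threshold. Gat1 stayed called under 14 of 17 alternatives and lost its call without stage 1 primordium replicate 2 or 3 or fruiting body replicate 2 (adjusted p = 0.0705, 0.0579 and 0.0658). Fst4 and Bri1 stayed called under 11 and 10 of 17. The losses of both included that with no scaling factor (log2 changes -0.83 and -0.84) and those without each library other than fruiting body replicate 1 (adjusted p between 0.0644 and 0.133 for Fst4 and between 0.0579 and 0.131 for Bri1). No alternative turned the direction of the 3 genes. In stage 2 primordium (n = 2) Gat1, Bri1 and Fst4 were at 56.4 ± 6.13, 50.3 ± 4.93 and 170 ± 65.4 CPM, and in young fruiting body (n = 3) at 56.1 ± 8.65, 51.5 ± 1.91 and 265 ± 4.17 CPM. Each of the 3 genes thus had a lower mean at both intermediate stages than in stage 1 primordium. Gat1 was highest in the mycelium of the other flow cell, at 326 ± 40.4 CPM.

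The zinc finger gene c2h2, needed for aggregates to become primordia, was at 208, 378 and 181 CPM in the primordia and at 41.0, 97.7 and 143 CPM in the fruiting bodies. The groups did not overlap, but the gene missed the threshold (-1.44 ± 0.48, adjusted p = 0.0559). It was called under 5 of 17 alternatives, among them DESeq2 (adjusted p = 0.0106) and without fruiting body replicate 3 (adjusted p = 0.0430). WC1, the blue light receptor gene, was the only regulator with a higher mean in the fruiting body, at 107, 127 and 133 CPM against 77.8, 71.7 and 104 CPM (0.54 ± 0.20, adjusted p = 0.0789). It was called without fruiting body replicate 1 (0.63, adjusted p = 0.0366) and with no scaling factor (0.71, adjusted p = 0.0332). Its highest levels lay between the end points, at 356 and 179 CPM in the stage 2 primordia. Fst3, a fungus-specific transcription factor whose loss gives more and smaller fruiting bodies, was at 417 ± 113 against 263 ± 137 CPM and overlapped (adjusted p = 0.290). The median log2 change of the 6 regulators was -0.99.

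Of the mating type B genes, which encode pheromones and their receptors and keep the dikaryon in place, 3 of 4 with a symbol had enough reads to test and none was called, where 31.0% of all genes tested were; 3 genes are too few to set against that share. The pheromone receptor gene bar3 was at 25.0, 25.2 and 19.0 CPM in the primordia and at 6.24, 17.6 and 19.6 CPM in the fruiting bodies (-0.66 ± 0.41, adjusted p = 0.241). Fruiting body replicate 1 was again the low library. The pheromone precursor gene bbp2-1 was at 18.3 ± 1.29 against 12.5 ± 1.58 CPM with no overlap (-0.54 ± 0.20, adjusted p = 0.0701), and it was called without fruiting body replicate 1 (-0.63, adjusted p = 0.0342). The precursor gene bbp2-6 stayed under 1 CPM in all 6 libraries, and bbp2 had 3 reads in the primordia and 2 in the fruiting bodies.

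CFS2 was the only gene with a symbol that rose. It was at 1.75, 11.8 and 5.88 CPM in the primordia and at 98.4, 66.2 and 50.2 CPM in the fruiting bodies, every one of them above every primordium. The log2 change was 3.47 ± 0.65 (adjusted p = 0.0103), an 11.1-fold rise, called under all 17 alternatives, and 4.24 without stage 1 primordium replicate 2. Stage 2 primordia, at 13.6 and 44.6 CPM, and young fruiting bodies, at 28.9, 32.2 and 32.4 CPM, lay between the end points. The laccase gene Lcc2 was at 9.30 ± 4.13 against 7.88 ± 4.44 CPM and EGC1 at 33.9 ± 4.89 against 22.4 ± 5.92 CPM, neither called (adjusted p = 0.740 and 0.113).

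The largest rises with at least 50 CPM in the higher stage were genes known by a locus tag only. SCHCODRAFT_02589830 was at 0.0546, 0.205 and 1.88 CPM in the primordia and at 242, 32.3 and 32.5 CPM in the fruiting bodies (7.22 ± 1.39, adjusted p = 0.0110). Its log2 change was 5.56 without fruiting body replicate 1, the highest library, and 9.52 without stage 1 primordium replicate 3. SCHCODRAFT_02678245 was at 0.0546, 0.154 and 2.37 CPM against 336, 9.17 and 11.4 CPM (7.17 ± 1.97, adjusted p = 0.0324). Most of that rise sat in fruiting body replicate 1, and without it the log2 change was 3.64 (adjusted p = 0.0716). It stayed called under 11 of 16 alternatives, and the losses included those without stage 1 primordium replicate 1 (6.58, adjusted p = 0.0902) or 2 (adjusted p = 0.0984) and with limma voom (adjusted p = 0.0611). Leaving out stage 1 primordium replicate 3 gave a log2 change of 10.04.

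After SC3, the largest fall among genes with at least 50 CPM in the higher stage was that of SCHCODRAFT_02625127, at 883, 314 and 19.8 CPM in the primordia and at 3.92, 3.85 and 3.06 CPM in the fruiting bodies (-6.80 ± 1.30, adjusted p = 0.0107). The primordia ran over a wide range while the fruiting bodies lay close together. Without stage 1 primordium replicate 1 it fell by 5.55 on the log2 scale, and the call ended without fruiting body replicate 1 (-6.87, adjusted p = 0.0547). Like SC3 it was read in the mycelium, at 374 ± 33.3 CPM, and was low in stage 2 primordium, at 5.93 and 5.17 CPM. It did not stay there in every library: the young fruiting bodies were at 44.3, 6.27 and 112 CPM, so that 2 of them lay above stage 1 primordium replicate 3.

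The transcripts that took the most reads overlapped between the stages. Of the 5 with the highest mean CPM in the primordium, 3 were also among the 5 highest in the fruiting body: SCHCODRAFT_02628901, SCHCODRAFT_02372730 and SCHCODRAFT_02625787. SCHCODRAFT_02628901 was at 29333, 18705 and 47522 CPM in the primordia and at 6586, 29078 and 14875 CPM in the fruiting bodies, which overlapped (adjusted p = 0.300). SCHCODRAFT_02372730 was at 27822, 26070 and 31691 CPM against 5494, 18208 and 18646 CPM, without overlap, and missed the threshold (-1.004 ± 0.53, adjusted p = 0.181). SCHCODRAFT_02625787, at 17224 ± 11128 against 9657 ± 2188 CPM, and SCHCODRAFT_02634178, at 12297 ± 7282 against 6184 ± 1567 CPM, did not pass the test (adjusted p = 0.260 and 0.172). Per length, in the deposited TPM, SCHCODRAFT_02372730 had the highest level of the genes named here in both stages, 62181 TPM in the primordium and 36193 TPM in the fruiting body as means.

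The other members of the most-read sets were called. Those above were not, at log2 changes of -1.004 to -0.82, which does not show that they stayed level. Model 2610781, which matched no locus tag, fell from 8511, 8082 and 10095 CPM to 1397, 4690 and 3383 CPM (-1.48 ± 0.47, adjusted p = 0.0487). That was the least stable call among the named genes, kept under 7 of 17 alternatives. The 10 losses included the fits over 14 and 11 libraries (adjusted p = 0.218 and 0.0725), scaling by totals alone (-1.31, adjusted p = 0.0614), the filter of at least 1 CPM in 3 libraries (adjusted p = 0.0511) and those without each library other than fruiting body replicate 1 (adjusted p between 0.0508 and 0.116). SCHCODRAFT_02699522 rose from 10.5, 60.7 and 208 CPM to 17695, 3871 and 3822 CPM (6.52 ± 1.33, adjusted p = 0.0128). It entered the 5 most-read transcripts of the fruiting body from under 210 CPM in every primordium. Leaving out fruiting body replicate 1 gave a log2 change of 5.38, leaving out stage 1 primordium replicate 3 gave 7.87, and without stage 1 primordium replicate 2 the call ended (6.28, adjusted p = 0.0520). SCHCODRAFT_02697331 rose likewise, from 52.7, 174 and 225 CPM to 15551, 4022 and 3324 CPM (5.68 ± 0.90, adjusted p = 0.00580), and by 4.62 on the log2 scale without fruiting body replicate 1.

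The genes that rose at least 4-fold went from a minor to a large part of the reads. The 838 genes held 0.509%, 0.780% and 0.980% of unique reads in the primordium libraries and 21.3%, 9.67% and 10.8% in fruiting body replicates 1 to 3; since the comparison chose them, these shares are a description. Fruiting body replicate 1 held more than its fellows, and it was the highest of the 3 in 583 of the 838 genes (69.6%, against 45.4% of all genes tested). In the intermediate stages the same genes held 9.37% and 6.34% of reads (stage 2 primordium) and 3.54% to 5.10% (young fruiting body). The mycelium, at 1.94% to 1.96%, lay above the primordia. The 181 genes that fell at least 4-fold held 2.24% to 3.20% of reads in the primordia and 0.255%, 0.604% and 0.635% in the fruiting bodies, with replicate 1 the lowest in 138 of the 181 (76.2%, against 41.0% of all genes tested).

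**Figure D3:**
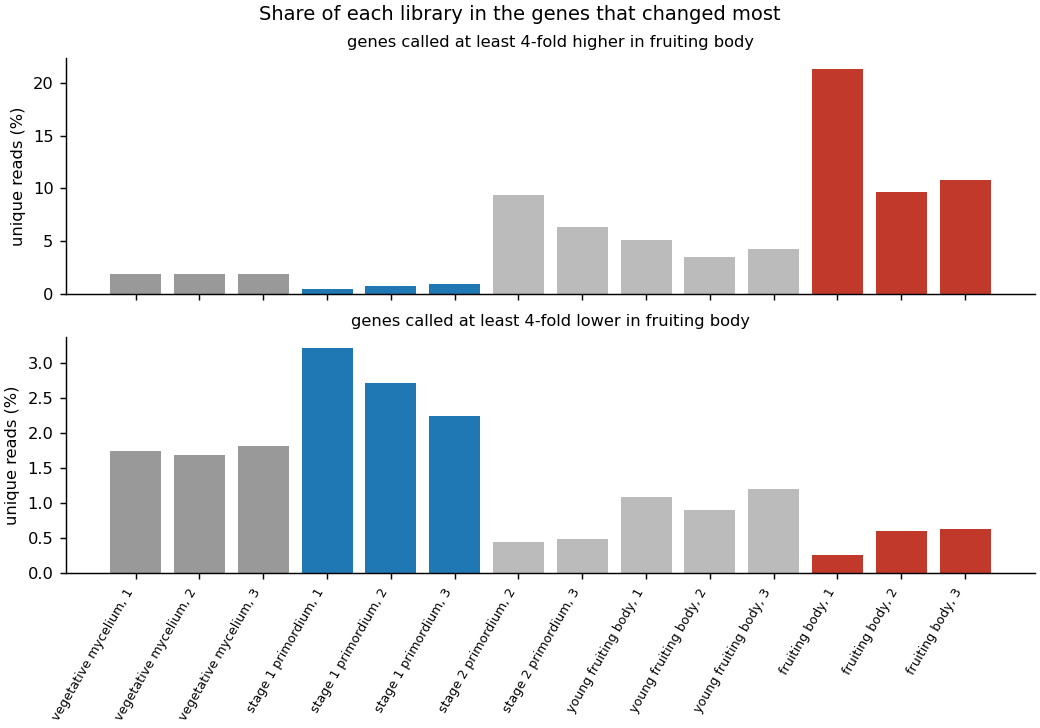
Bars give the percent of each library's unique reads that fell in the 838 genes called at least 4-fold higher (top) or the 181 called at least 4-fold lower (bottom) in the fruiting body; primordium bars are blue, fruiting body bars red, other stages grey, and each bar is 1 library. Fruiting body replicate 1 reaches 21.3% in the top panel against 9.67% and 10.8% in the other fruiting bodies, and no primordium exceeds 0.980%.

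For the genes that changed at least 4-fold, levels at the stages between were set against those of the end points. A gene's position was taken as 0 at its primordium mean and 1 at its fruiting body mean (mean log2 of CPM + 0.5). The libraries of the intermediate stages had no part in choosing the genes, but those of the end points chose them and set the scale. The positions are thus not independent of that choice and are a description. Median positions did not advance from stage 2 primordium to young fruiting body. In stage 2 primordium 596 of the 838 genes that rose (71.1%) were past the middle, at a median position of 0.68. In young fruiting body 577 (68.9%) were, at a median of 0.58. Between the libraries the share ran from 59.2% to 80.8% over the 2 stage 2 primordia, and over the 3 young fruiting bodies the number of genes ran from 377 to 621, so the stages overlapped. Of the genes, 57 lay above 1.5 in stage 2 primordium and 2 did in young fruiting body. Such a position is past the fruiting body level by over 0.5 of the log2 distance between the end points.

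The 181 genes that fell lay nearer their fruiting body level in stage 2 primordium than in young fruiting body. In stage 2 primordium 162 (89.5%) were past the middle, at a median position of 1.02, so that the typical one was at its fruiting body level there. In young fruiting body 124 (68.5%) were, at a median of 0.68. The 2 stage 2 libraries gave 86.2% and 89.5%, and the 3 young fruiting bodies 54.7% to 80.7%. Without fruiting body replicate 1, and with the genes called then, the shares past the middle were 72.0% and 72.6% for 674 rising genes and 81.3% and 69.1% for 123 falling genes, in stage 2 primordium and young fruiting body in turn.

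**Figure D4:**
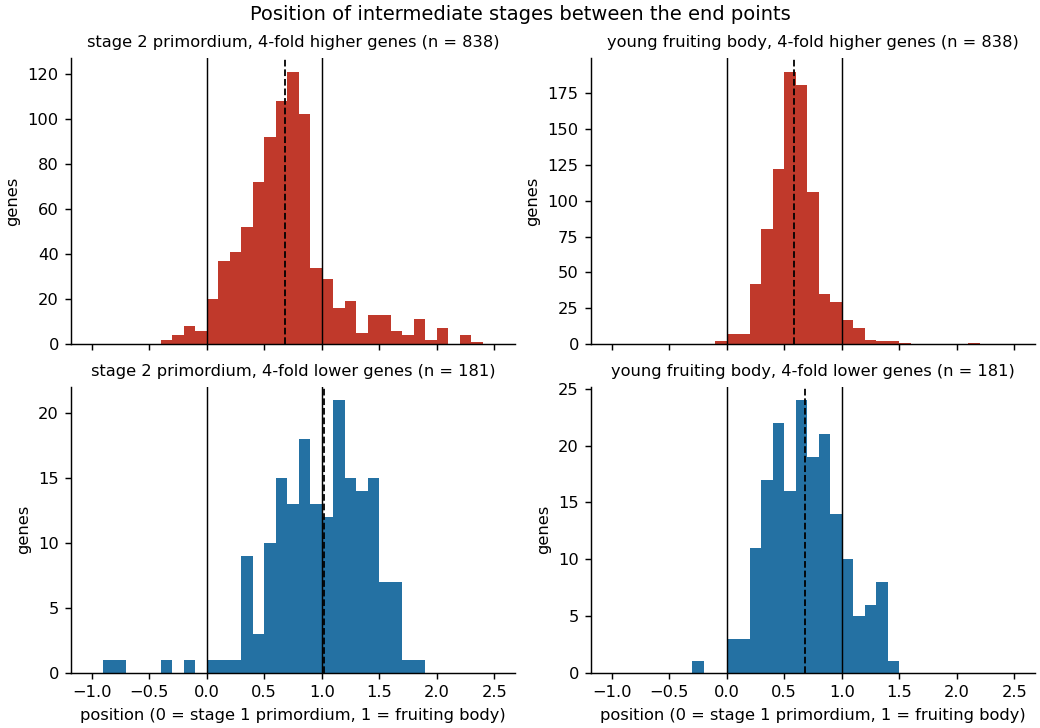
Histograms of the position of each gene called at least 4-fold higher (top, red, n = 838) or lower (bottom, blue, n = 181) in stage 2 primordium (left) and young fruiting body (right), where 0 is its stage 1 primordium and 1 its fruiting body level on the log2 scale; dashed lines mark medians. The median is 0.68 and 0.58 for the genes that rose, and 1.02 and 0.68 for those that fell.

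Set on the same scale, the vegetative mycelium lay at a median position of 0.19 for the 838 genes that rose, and 240 of them (28.6%) were past the middle there, nearer to their fruiting body than to their primordium level. For the 181 genes that fell, 119 (65.7%) were, at a median of 0.98, and 45 were above the primordium in the mycelium. All mycelium libraries came from the other flow cell, so what belongs to the stage and what to the flow cell cannot be told apart here.

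Genes that changed at least 4-fold often lay beside each other in the RefSeq gene order of assembly Schco3. Of 825 genes in that order that rose, 229 (27.8%) had a direct neighbour that rose at least 4-fold too, against 10.7% of the 13480 tested genes in the order. Of 178 that fell, 24 (13.5%) had a neighbour that fell, against 2.37%. Without fruiting body replicate 1 the shares were 24.6% against 8.65% and 13.9% against 1.61%. The 123 adjacent pairs that rose included 22 whose gene spans overlap, by any length. Since the library kit does not mark strand, reads from the shared stretch of such a pair cannot be told apart by strand. The longest runs were 4 genes, of which there were 4, all rising.

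A run of 4 rising neighbours, picked after the values were seen as that with the highest level in its weakest member, holds SCHCODRAFT_02753959, SCHCODRAFT_01110309, SCHCODRAFT_02645730 and SCHCODRAFT_02673902. Their means rose from 3.46 to 27.2, from 5.41 to 105, from 3.60 to 37.1 and from 7.42 to 56.8 CPM (log2 changes 2.98 ± 0.35, 4.29 ± 0.99, 3.38 ± 0.37 and 2.95 ± 0.34; adjusted p = 0.00251, 0.0183, 0.00228 and 0.00238). Among the fruiting bodies, SCHCODRAFT_01110309 alone was highest in replicate 1, at 225 CPM against 43.7 and 45.3 in replicates 2 and 3. The other members were lowest in replicate 1. SCHCODRAFT_02753959 was at 16.2, 30.9 and 34.5 CPM in replicates 1 to 3, SCHCODRAFT_02645730 at 26.7, 51.0 and 33.7, and SCHCODRAFT_02673902 at 47.4, 68.8 and 54.0.

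Large changes occurred at all levels and lengths, though not evenly. Rises of at least 4-fold made up 12.6% of the 749 genes with a mean of at most 1 CPM over the 6 libraries, 4.73% of the 6786 between 10 and 100 CPM, and 11 of the 90 above 1000 CPM (12.2%). The shares that fell at least 4-fold at these levels were 0.668%, 1.37% and 2.22%. The filter on low counts can pass a gene through a single stage where it is high, so it may partly set the shares at the lowest level. By transcript length, 7.73% of the 3429 genes of over 500 and up to 1000 bases rose at least 4-fold, against 3.38% of the 1095 over 3000 bases. For falls these shares were 2.04% and 0.365%. Of the 838 genes that rose at least 4-fold, 5 had at most 3 reads over all 3 primordia.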

How the data were processed

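Poly(A) RNA of 14 samples was sequenced from TruSeq RNA libraries, which do not mark strand. Per the file headers, the authors deposited raw read counts (unique and total gene reads) and TPM (scaled by transcript length and library total) for 16319 transcript models in each library. Per the submitters' processing notes, R 3.0.2, edgeR 3.4.2 and limma 3.18.13 were used, without a stated role. Neither an aligner nor a build is given in the sources used here. IDs from 2000000 up were matched to locus tags after subtracting 287 (14009 matches, against 1180 for the next best of 4001 offsets), the others by the same number (2004) or an older tag (11). No matched transcript exceeded the span of its gene.

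The test on unique reads of the 6 libraries was run in R 4.3.3 with edgeR 4.0.16 (genes kept by filterByExpr, TMM, robust quasi-likelihood fit, two-sided, Benjamini-Hochberg). The fit held these 6 libraries only, since the mycelium libraries come from another flow cell and vary less. SE is the log2 change over the square root of F. CPM levels used TMM over all 14 libraries. On simulated data with 100 genes changed per fold size (13666 genes), 81% of the 4-fold changes were found and 3% of the 2-fold ones, and 10 of the 94 calls were unchanged genes. Limma 3.58.1 (voom) and DESeq2 1.42.0 were alternatives.

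Named genes were all with a symbol, the 2 largest called rises and falls without overlap and with at least 50 CPM, and the 5 with the most CPM per stage. Planned protein pattern lists and genes named from them were not used, since no protein sequences were given. The members, lists and tests were chosen with earlier results of these data known. The deposited log2 RPKM table was not used here.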

Additional observations from a re-analysis of the deposited data

How the results depend on the processing

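Of 91 alternative values of the counts and shares, 77 stayed within 1.5 times the reported count or within the spread of the libraries. With sample-weighted voom the total was 6622 and the falls 3071, with no scaling factor the falls were 1056, and with a replicate block they were 1040 (2855 calls in all, 2787 of them shared). Leaving out 1 library in turn gave 1994 to 4886 calls, 1298 to 2658 rises and 696 to 2228 falls, with 674 to 951 rises and 123 to 203 falls of at least 4-fold. The fits over 14 and 11 libraries gave 4853 and 3518 calls. The share of falling genes past the middle in stage 2 primordium was 86.2% to 89.5% without a stage 2 library and 81.3% without fruiting body replicate 1, an alternative added after seeing the data, like that for neighbours.

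The labels do not say whether the replicate numbers pair the samples. Deviations of same-numbered libraries from their stage means correlated at -0.12, 0.08 and -0.24, and no primordium correlated best with its own number. Deviations within a stage are tied to each other through its mean, so these values cannot settle whether samples were paired. The block ended the calls of 3 named genes, Bri1, SCHCODRAFT_02678245 and model 2610781 (adjusted p = 0.0734, 0.0987 and 0.0777). Among named genes the direction turned only for uncalled ones. The log2 change of Hyd4 was 0.62 with voom, 0.87 with weights and 0.90 with the replicate block. Leaving out 1 library in turn, log2 changes ran from -1.02 to 2.06 for Hyd4, from -4.98 to 1.36 for Hyd3, from -1.15 to 0.32 for Hyd8, from -2.32 to 0.35 for Hyd5 and from -0.71 to 0.17 for Lcc2. The cause was not tested. Depth limits the genes of few reads. The simulation gave 94 calls, against 4258 in the data, so the Benjamini-Hochberg adjustment was stricter there. The simulation also drew each gene independently, so no simulated library stood apart as fruiting body replicate 1 did. Its 81% of 4-fold and 3% of 2-fold changes found therefore do not show what was missed here.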
